A study of Mus musculus with 10 samples.

Results

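The 6 genes described here belong to the machinery of protein synthesis or to the response to amino acid shortage, and they were followed in mouse colon during chemically induced colitis, in mice lacking the immune checkpoint protein Vista and in wild-type mice. They are Rps20 and Rpl30, which encode ribosomal proteins, Pabpc1, the cytoplasmic poly(A)-binding protein gene, Tars, the threonyl-tRNA synthetase gene, Asns, the asparagine synthetase gene, and Nol6, a nucleolar gene of ribosome assembly. They were chosen by symbol, 6 of the 55416 rows of the count tables, each lying wholly inside 1 of 3 stretches of the genome in which counts follow gene names. RNA was sequenced from whole colon after 7 days of 2% dextran sulfate sodium (DSS) in the drinking water, an agent that injures the colonic epithelium. There were 5 Vista knockout (KO) libraries and 5 wild-type (WT) libraries, and both genotypes received DSS, so the comparison is of genotypes within colitis and holds no uninjured colon. The libraries were sequenced on a BGIseq500 from total RNA, and the labels do not say how the Vista allele was made. The first deposited table held KO 1 to 3, labelled VISTA knockdown, and WT 1 to 3, and the second held KO 4 and 5, labelled Vista-/-, and WT 4 and 5. All 5 are taken as 1 knockout group. Strain, age and sex are not given in the sources used here. The design text calls 3 replicates per genotype biological, but no label ties the 4 later libraries to separate animals, and the spread behind every p-value given here may in part be technical.

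Ribosomal protein genes and Pabpc1 belong to the class of mRNAs that begin with a pyrimidine tract and are translated more or less strongly according to mTORC1 activity. Asns and Tars are known targets of the transcription factor ATF4, which is made when amino acids run short or when the endoplasmic reticulum is stressed. ATF4, with a C/EBP partner, binds a composite element called CARE in the promoters of such genes. Nol6 encodes a component of the small subunit processome, the particle in which the precursor of the small ribosomal subunit matures.

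The CARE is shown for Asns and Tars, the ATF4 targets among the genes, since it is the element that ATF4 binds. RefSeq promoters (250 bases before to 50 after a start site, GRCm38.p6) were matched for 2 of the 6 genes, Asns and Tars. The core TGATGNAA was searched on both strands, and capitals mark the match in the 30 bases printed on the gene strand.
Asns: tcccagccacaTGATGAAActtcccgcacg
Tars: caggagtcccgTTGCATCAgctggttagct
The Asns stretch is chr6:7693214-7693243, on the minus strand, and the match began 23 bases before the RefSeq start site. The GENCODE M21 model of Asns extends past it, to 7693254, so the match lies inside the longest model. The Tars stretch is chr15:11399655-11399684, also on the minus strand, where the match is in the opposite orientation and began 15 bases before the start site. Of 32851 promoters of the same length, 3.97% hold this core. The E-box CACGTG, present in 7.15% of promoters, was found from base 20 of the Tars transcript and not in the Asns window. A match of letters is a description and no evidence of binding in these samples.

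All 6 genes were counted deeply, with 6560 counts for Nol6, the fewest, and 150169 for Pabpc1, the most, over the 10 libraries. Library totals ran from 3691322 to 4071238 counts. Levels are given as CPM, a row's counts scaled to a common library total. The 82 cytosolic ribosomal protein genes include 2 inside the regions, Rps20 and Rpl30. The 80 others had a median of 4.5 counts over all libraries, and 9 of them reached 500 counts, so outside the regions a row's name was not taken to identify its transcript. The regions had been drawn from genes of this kind that reached 500 counts, and the high counts of Rps20 and Rpl30 therefore give them no support. The row of Vsir, the gene of Vista, lies outside and held 27 to 97 counts in KO libraries and 0 to 82 in WT libraries, so it does not check the genotype labels.

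Colon markers inside the regions were present in every library, with a summed level of 8443 to 11415 CPM in KO and 9599 to 12442 CPM in WT for 9 epithelial genes. Klf4, Cdh17 and Spink4 made up most of that sum. Of the 8 epithelial genes tested, Car9, Galnt12 and Cftr fell in KO over all libraries, with adjusted p values of 0.0079, 0.0227 and 0.031 in edgeR, and the other 5 did not pass. Car9, Galnt12 and Esrp1 were lower in all 5 KO libraries than in any WT library, as were 4.51% of rows. Aqp3, an epithelial water channel gene among the 9, had only 23 counts in all and was not tested. Summed levels of 7 stromal and muscle markers were 1730 to 3055 CPM in KO and 1839 to 3147 CPM in WT, and those of the B cell genes Cd72 and Pax5 were 102 to 218 CPM in KO and 17.9 to 254 CPM in WT. WT 4 and WT 5 held 25.5 and 17.9 CPM of these B cell genes, below the other 8 libraries, and the genotype difference of Pax5 changed between the tables, with an interaction of 4.58 on the log2 scale and an adjusted p of 0.00377 in edgeR. Summed levels of 3 other leukocyte genes, Tox, Ccl19 and Sit1, were 53.3 to 68.2 CPM in KO and 64.7 to 113 CPM in WT. Tox made up most of that sum. Tox fell in KO over all libraries, with an adjusted p of 0.0427 in edgeR, and Ccl19 was not tested. Sit1 had a positive log2 fold change, 0.56, and did not pass, with an adjusted p of 0.539 in edgeR. Ccl27a and Ccl21a of the same list also lie inside the regions and were left out of the sum. Ccl27a had 13.4 to 25.7 CPM in KO and 18.3 to 28.7 CPM in WT. Ccl21a had 0.787 to 16.7 CPM in KO and 0 to 0.812 CPM in WT. Of the neuropeptide genes used as markers of enteric neurons, Penk fell and Tac1 rose in KO over all libraries. Their adjusted p values were 0.0308 and 0.00826 in edgeR. The part of these markers in the results on the 6 genes was not tested. In a principal component analysis of log2(CPM + 1), whose leading component held 34.8% of the variance, WT 4 and WT 5 stood apart at 45.4 and 50.9, against −26.9 to −11.0 in the KO libraries and −2.08 to 6.29 in WT 1 to 3. On the next component KO 5 lay at −20.5, within the −29.6 to −16.6 of WT 1 to 3. KO 1 to 4 lay at 6.70 to 28.4 there, and WT 4 and WT 5 at 10.9 and 17.1. The mean chi-square per row, larger where 2 libraries differ more, was 27.7 between KO 4 and KO 5. It was 6.10 to 9.98 among KO 1 to 3 and 6.34 between WT 4 and WT 5. KO 4 and KO 5 thus differed over many rows, not only in the genes described here. In bulk tissue, fewer cells of a type and less RNA per cell cannot be told apart.

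Levels between genes can be set side by side only per length. Per kilobase of merged GENCODE M21 exons, Pabpc1 had 593 ± 58.9, Rpl30 565 ± 36.1, Rps20 353 ± 21.1, Asns 98.9 ± 26.2, Tars 85.7 ± 10.9 and Nol6 32.3 ± 4.93 CPM per kilobase (SD, n = 10). The ranges over libraries overlapped between Pabpc1 and Rpl30 and between Asns and Tars, and between no other neighbours in this order. The order depends on the transcript model. Per kilobase of the longest M21 transcript marked as principal, Rpl30, at 1926 ± 123, lay above Pabpc1, at 1378 ± 137 (SD, n = 10). The merged exons of Rps20 and Rpl30 summed to 4080 and 3020 bases over all annotated transcripts. Their longest principal transcripts had 3706 and 886 bases. A shorter transcript would give Rps20 a higher level per kilobase, and shorter ones were not tried. The place of Rps20 below Rpl30 and Pabpc1 is therefore uncertain.

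The genes differed in how much they varied. The highest library had 1.17 times the CPM of the lowest for Rps20, 1.26 times for Rpl30, 1.38 times for Tars, 1.40 times for Pabpc1, 1.72 times for Nol6 and 2.31 times for Asns. The ribosomal protein genes were thus the steadiest of the 6 and Asns the most variable. KO 4 was the highest library for Rps20, Asns and Nol6, and WT 1 the lowest for Pabpc1, Asns and Nol6.

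**Figure D1:**
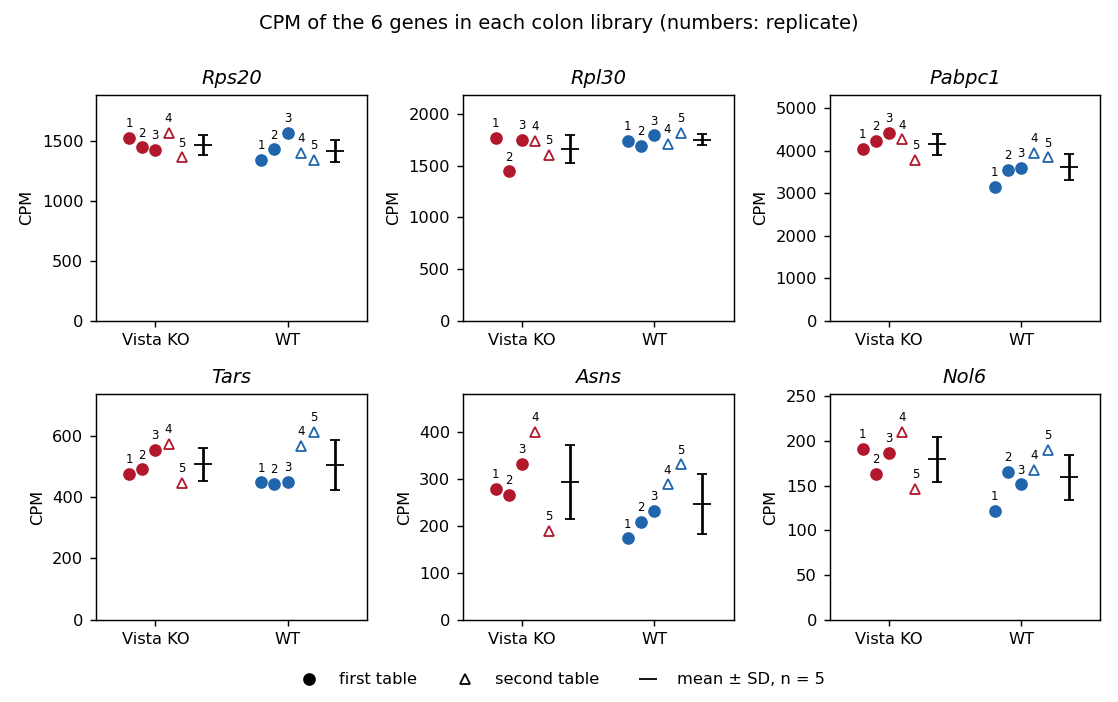
CPM (vertical axes, from 0) of the 6 genes in each Vista KO and WT colon library after DSS, with circles for the first deposited table, triangles for the second, numbers for the replicate and bars for the mean ± SD of 5. Asns, Pabpc1 and Tars were higher in KO 1 to 3 than in WT 1 to 3, whereas KO 5 lay within the range of the WT libraries for these genes.

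The comparison over all 10 libraries asked which of these transcripts differ between Vista KO and WT colon in DSS colitis, using edgeR's quasi-likelihood test with the deposited table as a covariate and Benjamini-Hochberg adjustment over all 9736 rows tested. None of the 6 passed an adjusted p of 0.05, where 5.63% of all rows tested did. One, Pabpc1, had an unadjusted p under 0.05, as did 23.3% of all rows, and DESeq2 and limma voom also called 0 of the 6. The median log2 fold change of KO over WT was 0.14 over the 6 genes and 0.02 over all rows tested. Positive values were found for 5 of the 6, and for 5124 of all 9736 rows.

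Within the first table, where 3 KO libraries were set against 3 WT libraries, Asns rose in KO colon and was the 1 gene of 6 that passed, where 3.1% of the 9829 rows tested passed as higher and 6.06% in either direction. An unadjusted p under 0.05 was found for 4 of the 6, Pabpc1, Tars, Asns and Nol6, and for 26.1% of all rows. In the second table none of the 6 passed in edgeR, DESeq2 or voom, where edgeR called 0.856% of rows, and 0 of the 6 had an unadjusted p under 0.05, as 14.5% of rows did. The 3 KO libraries of the first table lay above all 3 WT libraries for 3 of the 6 genes, Pabpc1, Tars and Asns, where this held for 13.5% of rows. No gene of the 6 had KO and WT apart over all 10 libraries, where 7.22% of rows did, or in the second table, where 44.8% of rows did.

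Rps20 encodes a protein of the small ribosomal subunit (ENSMUSG00000028234, chromosome 4 from 3831334 to 3835665 in mm10, minus strand, protein-coding). It had 1523, 1446, 1424, 1569.6 and 1363 CPM in KO libraries 1 to 5, against 1343, 1429.6, 1567, 1403 and 1341 CPM in WT libraries 1 to 5. The groups overlapped throughout, with KO 4 and WT 3 nearly equal at the top. The means were 1465 ± 81.7 CPM in KO and 1417 ± 92.1 CPM in WT (SD, n = 5 each). The log2 fold change was 0.078 ± 0.077 (SE), with a 95% interval of −0.091 to 0.25 and an adjusted p of 0.568 in edgeR. The difference was smaller than the spread between replicates, and the interval reaches to both sides of 0.

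Rpl30 encodes a protein of the large subunit (ENSMUSG00000058600, chromosome 15 from 34440505 to 34443640, minus strand, protein-coding). Its levels were 1766, 1444, 1749, 1742 and 1606 CPM in KO libraries 1 to 5, against 1739.8, 1691, 1793, 1712 and 1819 CPM in WT libraries 1 to 5. KO 2 and KO 5 lay below every WT library and the other 3 KO libraries lay among them. The log2 fold change was −0.050 ± 0.076 (SE), with a 95% interval of −0.22 to 0.12 and an adjusted p of 0.725 in edgeR. In M21 both ribosomal protein genes share exon bases with a small nucleolar RNA gene on the same strand, Gm24016 for Rps20 and Gm24523 for Rpl30, whose own rows had 0 counts. Rpl30 also shares 616 exon bases with D730044K07Rik on the opposite strand, whose row had 19 counts. M21 names 9 Rpl30 pseudogenes by its symbol, and how reads that match such copies were counted is not given in the sources used here. The level of Rpl30 is uncertain to that extent. Copies under other names were not looked for, so the levels of the other genes may hold the same uncertainty.

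Pabpc1 encodes the protein that coats the poly(A) tail of cytoplasmic mRNA and links it to the initiation complex (ENSMUSG00000022283, chromosome 15 from 36595661 to 36609668, minus strand, protein-coding). It stood at 4038, 4233, 4422, 4262 and 3785 CPM in KO libraries 1 to 5, against 3150.3, 3538, 3594, 3952 and 3839 CPM in WT libraries 1 to 5. KO 1 to 4 lay above every WT library, and KO 5 lay below WT 4 and WT 5. The means were 4148 ± 245 CPM in KO and 3614 ± 311 CPM in WT (SD, n = 5 each). The pooled log2 fold change was 0.23 ± 0.084 (SE), with an unadjusted p of 0.0187 and an adjusted p of 0.131 in edgeR. In the first table it was 0.34 ± 0.092, with an adjusted p of 0.0548 in edgeR, which misses the threshold, 0.0235 in DESeq2 and 0.0404 in voom. In the second table it was 0.049 ± 0.14, with an adjusted p of 0.929 in edgeR.

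Tars encodes the enzyme that charges threonine onto its tRNA (ENSMUSG00000022241, chromosome 15 from 11382301 to 11399665, minus strand, protein-coding). Its levels were 475, 490.3, 553, 573 and 445 CPM in KO libraries 1 to 5, against 448, 443, 448, 568 and 613 CPM in WT libraries 1 to 5. WT 1 to 3 were almost identical and lay below KO 1 to 4, whereas WT 4 and WT 5 lay with KO 3 and KO 4 at the top. Over all libraries the means, 507 ± 53.9 CPM in KO and 504 ± 80.5 CPM in WT (SD, n = 5 each), differed by less than the spread between replicates. The log2 fold change was 0.050 ± 0.10 (SE), with an adjusted p of 0.803 in edgeR. The first table gave 0.22 ± 0.090 with an adjusted p of 0.163, and the second table −0.21 ± 0.18 with 0.696, both in edgeR.

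Asns makes asparagine from aspartate and glutamine and is among the most used indicators of ATF4 activity (ENSMUSG00000029752, chromosome 6 from 7675169 to 7693254, minus strand, protein-coding). It had 279.7, 267, 333, 401 and 189 CPM in KO libraries 1 to 5, against 174, 209, 233, 289 and 332 CPM in WT libraries 1 to 5. In the first table the genotypes did not overlap, at 267 to 333 CPM in KO and 174 to 233 CPM in WT. In the second they crossed, since KO 4 was the highest of all 10 libraries, KO 5 the second lowest, and both WT libraries lay between them. KO 4 had 2.12 times the level of KO 5.

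In the first table Asns averaged 293 ± 35.0 CPM in KO and 205 ± 29.8 CPM in WT (SD, n = 3 each), a 1.46-fold rise with a log2 fold change of 0.55 ± 0.12 (SE) and an adjusted p of 0.0265 in edgeR. The call held in DESeq2 and voom, with adjusted p values of 0.00250 and 0.0262. It was lost without KO 1, KO 3, WT 1 or WT 2, where the adjusted p ran from 0.0577 to 0.0839 in edgeR and the log2 fold change stayed between 0.47 and 0.59. In the same 6 libraries the sum of 7 stromal and muscle markers was also apart, at 1730 to 2218 CPM in KO 1 to 3 and 2560 to 3147 CPM in WT 1 to 3. Its members did not all follow the sum, since Flnc had 194 to 391 CPM in KO 1 to 3 and 123 to 171 CPM in WT 1 to 3. Tpm2 overlapped between the genotypes, as did Tgfbr1, a stromal gene not in the sum. The neuropeptide genes used as markers of enteric neurons moved in opposite directions, with Penk at 38.1 to 103 CPM in KO 1 to 3 and 135 to 199.96 CPM in WT 1 to 3, and Tac1 at 513 to 644 CPM in KO 1 to 3 and 119.5 to 165 CPM in WT 1 to 3. Among the epithelial markers Car9, Cftr, Galnt12 and Esrp1 were lower in KO 1 to 3 than in WT 1 to 3, and the others overlapped. Tox was also lower in KO 1 to 3, whereas Cd72, Pax5, Sit1 and Ccl19 overlapped. The part of all these markers in the Asns result was not tested. Over all 10 libraries the log2 fold change was 0.31 ± 0.19 (SE), with an adjusted p of 0.357 in edgeR. Without KO 5 it was 0.49 with an adjusted p of 0.0141 in edgeR. With WT 4, WT 5 and the table covariate all left out it was 0.54, with an adjusted p of 0.175.

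Nol6 (ENSMUSG00000028430, chromosome 4 from 41114427 to 41124455, minus strand, protein-coding) had 191, 163, 187, 210.3 and 147 CPM in KO libraries 1 to 5. The WT libraries 1 to 5 had 122, 165, 152, 167 and 190.2 CPM. KO 4 was highest and WT 1 lowest, and the other 8 libraries of both genotypes were intermixed. The log2 fold change was 0.21 ± 0.12 (SE) over all libraries, with an adjusted p of 0.323 in edgeR. The first table gave 0.34 ± 0.11 with an adjusted p of 0.0986, and the second 0.0004 ± 0.21 with 0.999, both in edgeR.

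**Figure D2:**
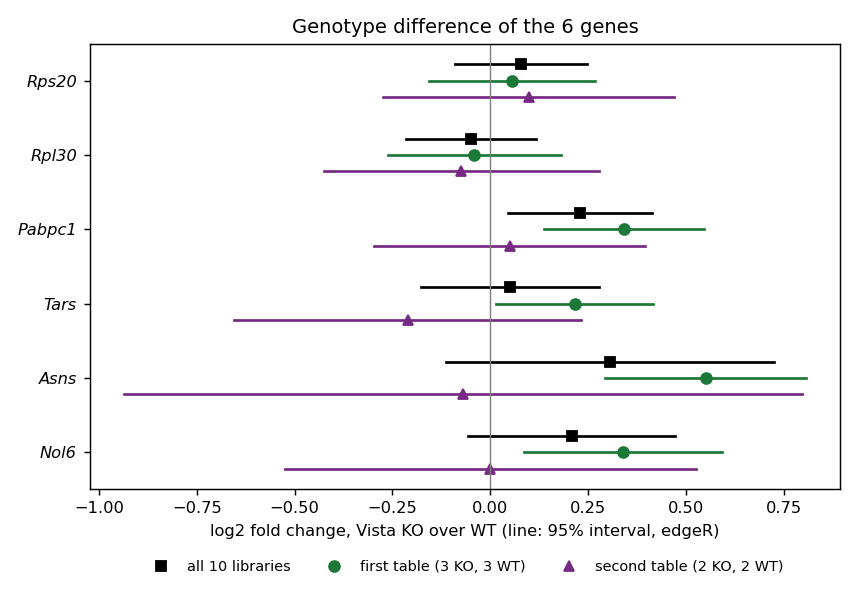
Log2 fold change of Vista KO over WT (horizontal axis) for the 6 genes, from edgeR over all 10 libraries (squares), the first table (circles) and the second table (triangles), with lines for the 95% interval of each difference. The first-table value of Asns, 0.55, lies farthest from 0, and the second-table intervals are the widest.

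An interaction term asked whether the genotype difference was itself different in the second table from that in the first. None of the 6 passed in edgeR, DESeq2 or voom, where edgeR called 2.05% of rows, and Tars had the 1 unadjusted p under 0.05, where 14.6% of rows had one. Its difference was −0.42 ± 0.17 on the log2 scale, with a 95% interval of −0.81 to −0.041 and an adjusted p of 0.281 in edgeR. For Asns the difference was −0.62 ± 0.35, with a 95% interval of −1.38 to 0.15 and an adjusted p of 0.465. Without KO 4 it was −1.25 with an adjusted p of 0.00798 in edgeR, which leaves KO 5 as the only KO library of the second table and assumes that it varies like the other groups. The test did not show Asns to differ between the tables, and the second-table value of Asns was −0.70 without KO 4 and 0.36 without KO 5, against −0.069 with both. The tables hold different libraries, and what else differed between them is not given in the sources used here.

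The ratio of counts within a library does not depend on its total. Counts of Asns per count of Tars, both ATF4 targets, were 0.545 to 0.603 in KO 1 to 3 and 0.388 to 0.52 in WT 1 to 3. In the second table the ratio was 0.6995 and 0.426 in KO 4 and 5, and 0.508 and 0.541 in WT 4 and 5. The ratio was higher in every KO library than in any WT library of the first table, and the genotypes overlapped in the second. Counts of Pabpc1 per count of Rps20 and Rpl30 together were 1.23 to 1.46 in KO 1 to 3 and 1.02 to 1.13 in WT 1 to 3, and 1.29, 1.27, 1.27 and 1.21 in KO 4, KO 5, WT 4 and WT 5. Neither ratio was tested.

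Other genes of protein synthesis and amino acid handling came from 8 lists of 32 genes inside the regions, the 6 described above included. Of these, 31 passed the filter on low counts. The lysine degradation gene Aass did not, with 26 counts in all. Over all 10 libraries 0 of the 31 passed in edgeR, DESeq2 or voom, and 7 had an unadjusted p under 0.05 in edgeR, a share near the 23.3% of all rows. Their log2 fold changes ran from −0.37 to 0.36, and the median was 0.12 against 0.02 over all rows tested. Of the 31, 20 were positive and 11 negative, where 5124 of all 9736 rows were positive. In the first table edgeR called Asns alone, and DESeq2 and voom called Asns and Pabpc1. In edgeR 11 of the 31 had an unadjusted p under 0.05, where 26.1% of all rows did. Of the 31 first-table values 23 were positive, as were 4871 of all 9829 rows. The value farthest from 0 was a fall, −0.92 ± 0.27 (SE) for Rragd, of the amino acid metabolism and mTORC1 sensing list. Its adjusted p was 0.0664 in edgeR. Rragd had 266 counts in all, and its second-table value was 0.43 with an adjusted p of 0.688 in edgeR. The second table had 16 positive and 15 negative values.

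Ribosome biogenesis was the largest of the lists inside the regions, with 13 genes, of which 0 passed in edgeR, DESeq2 or voom and 4 had an unadjusted p under 0.05 in edgeR, as 23.3% of all rows did. Their log2 fold changes were positive for 10 and negative for 3, with a median of 0.18 over all libraries and of 0.21 in the first table. For all rows tested these medians were 0.02 and −0.003, and 5124 of 9736 values over all libraries were positive. The second table had 7 positive and 6 negative values, with a median of 0.0004 and 0 at an unadjusted p under 0.05. Among the negative ones was Zfp622, a gene of late large-subunit maturation, with 158 to 176 CPM in KO and 180.4 to 216 CPM in WT. It was lower in all 5 KO libraries than in any WT library, as were 4.51% of rows, and its log2 fold change was −0.19 ± 0.070 (SE) with an adjusted p of 0.135 in edgeR. Zcchc7, a gene of nuclear RNA surveillance, had −0.17 ± 0.076 with an adjusted p of 0.197.

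The list of translation factors and mRNA-binding proteins held 5 genes. All had a positive log2 fold change over all libraries, as had 5124 of 9736 rows, and 0 of them passed the threshold in edgeR, DESeq2 or voom. Of the 5, 3 had an unadjusted p under 0.05 in edgeR, where 23.3% of all rows did, and the second table had 4 positive values and 0 with such a p. Snd1, which encodes an RNA-binding Tudor domain nuclease, had 608, 663, 584, 775 and 454 CPM in KO libraries 1 to 5, against 389, 458, 583, 494 and 529 CPM in WT libraries 1 to 5. KO 1 to 4 lay above every WT library, KO 3 by little, and KO 5 was the second lowest of the 10. Its log2 fold change was 0.36 ± 0.15 (SE) with an adjusted p of 0.170 in edgeR, and 0.47 with 0.0281 without KO 5. Zfr, an RNA-binding zinc finger gene, stood at 404 to 443 CPM in KO and 356 to 401 CPM in WT. It was higher in all 5 KO libraries than in any WT library, as were 2.71% of rows, with a log2 fold change of 0.17 ± 0.071 and an adjusted p of 0.182. Mtdh had 0.12 ± 0.075 with 0.345, and Ncbp1, the large subunit of the nuclear cap-binding complex, 0.050 ± 0.089 with 0.767, both in edgeR.

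The remaining lists were short inside the regions. The mitochondrial arginyl-tRNA synthetase gene Rars2, chosen here after its values were seen as the other synthetase of the list, had a log2 fold change of −0.11 ± 0.11 with an adjusted p of 0.569 in edgeR over all libraries. In the second table alone it had −0.44 with an adjusted p of 0.234, and in the first 0.097 with 0.611. Mrpl50, a mitochondrial ribosome gene, had −0.13 ± 0.083 with an adjusted p of 0.357. Of 6 tested genes of amino acid metabolism and mTORC1 sensing, Asns was the 1 with a positive value over all libraries, and 0 passed in edgeR, with 0 at an unadjusted p under 0.05. The integrated stress response list had only Asns and Tars inside the regions, so Atf4, Ddit3, Trib3 and the amino acid transporter genes of that response were not analysed here.

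**Figure D3:**
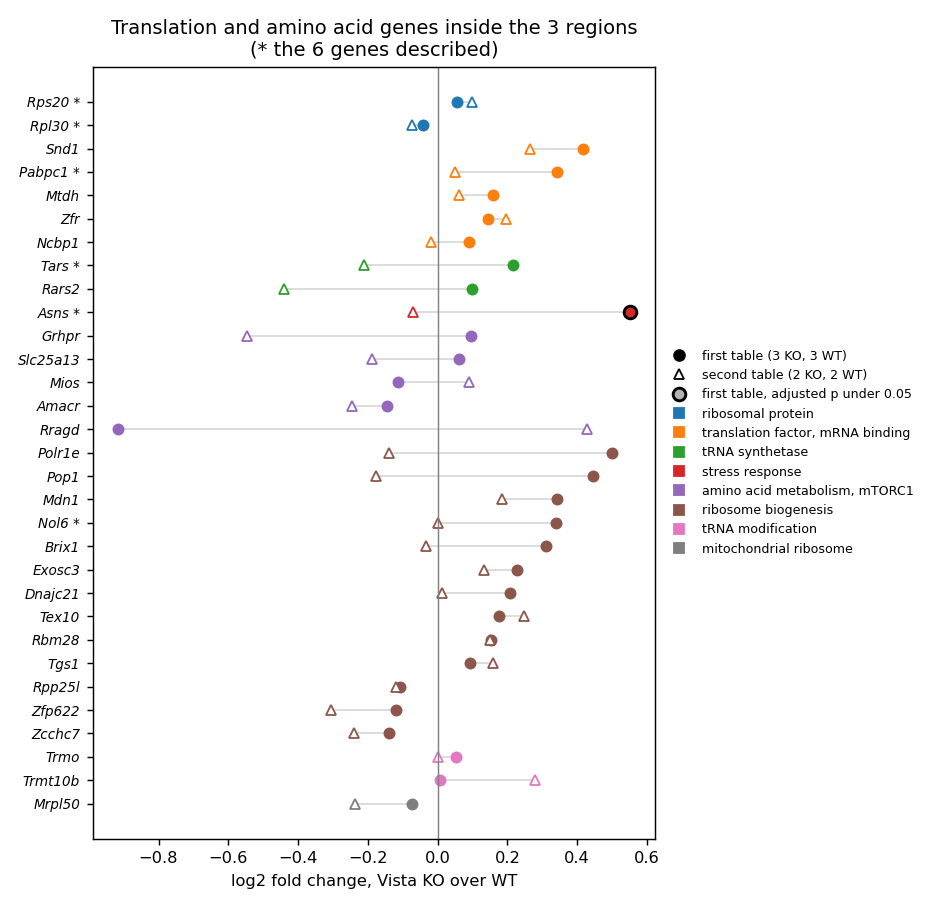
Log2 fold change of Vista KO over WT (horizontal axis) for the 31 tested translation and amino acid genes inside the regions, grouped by list in colour, with circles for the first table, open triangles for the second and a black ring for an adjusted p under 0.05. Asns is the 1 gene with a ring, and 23 of 31 circles lie right of 0, against 16 of 31 triangles. Over all rows tested 4871 of 9829 values were positive in the first table and 5135 of 9932 in the second.

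The genes whose profiles lay nearest to each of the 6 were found among 323 other protein-coding genes inside the regions with a mean of at least 10 CPM. The measure was the root-mean-square difference of centred log2(CPM + 1) over the 10 libraries, which share their totals and their 2 tables. Nearest to Asns were Rad23b at 0.16, Ubap2 at 0.18 and Brix1 at 0.19, where the spread of Asns about its own mean was 0.37. Nearest to Nol6, with an own spread of 0.22, were Ubap2 at 0.08, Brix1 at 0.08 and Dnajc25 at 0.10. Brix1, a gene of large-subunit assembly, had 159.7 to 196 CPM in KO 1 to 3 and 125 to 158 CPM in WT 1 to 3. These did not overlap, by little, and KO lay above WT in the first table for 13.5% of all rows. In the second table Brix1 had 203 and 154 CPM in KO 4 and 5 against 169 and 197 CPM in WT 4 and 5. Brix1 was picked for its likeness over these same libraries, so its shared pattern gives no support to the Asns result.

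Nearest to Pabpc1 were Dnajc21 at 0.07, Ube2j1 at 0.08 and Tnpo3 at 0.08, beside an own spread of 0.14. Nearest to Tars were Tnpo3 at 0.09, Usp45 at 0.10 and Ncbp1 at 0.10, beside 0.17. For Rps20 they were Erp44, Zfp706 and Drosha at 0.06 to 0.07, and for Rpl30 Rpp25l, Rab2a and Zfp706 at 0.08. For these 2 genes the distances were close to their own spreads of 0.081 and 0.092. Among the 6 genes themselves the closest pair was Rps20 and Rpl30, at 0.12, and the farthest Rpl30 and Asns, at 0.36.

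**Figure D4:**
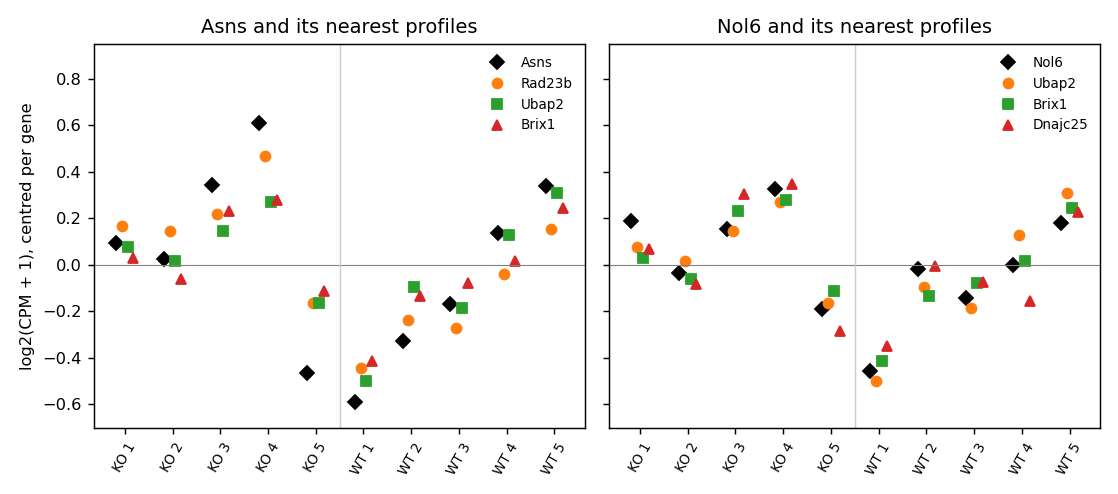
Log2(CPM + 1) centred on each gene's mean (vertical axis) in the 5 Vista KO and 5 WT libraries for Asns (left) and Nol6 (right), each with its 3 nearest genes. For every gene shown KO 4 lies above the mean and KO 5 and WT 1 below it. The nearest genes were picked for likeness to Asns or Nol6 over these same libraries, so a shared pattern follows from the choice.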

How the data were processed

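Values were raw read counts per Ensembl gene in the tables the authors deposited. HISAT2 and featureCounts 2.0.1 were used, with HISAT2 2.2.1 and the build GRCh38 named for the first 6 libraries and mm10 for the other 4, per the submitters' processing notes. Annotation and strand setting are not given in the sources used here. Reads were single-end and 50 bases long for the later 4, per the labels' protocols. GENCODE M21 named 52083 of 55416 identifiers, and the rest stayed in all totals (0.358% to 0.41% of counts).

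Names were used only inside mm10 chromosome 4 from 1 to 59.9 Mb, chromosome 6 from 1 to 30.3 Mb and chromosome 15 from 10.4 to 38.1 Mb, 1415 rows. The members, regions, lists and alternatives were chosen with earlier results of these data known. No 2 libraries agreed within counting noise (lowest mean chi-square per row 4.56). CPM used column totals.

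edgeR 4.0.16 (R 4.3.3; TMM, expression filter, quasi-likelihood test, checked on simulated data) was fitted to all rows, with Benjamini-Hochberg adjustment and a threshold of 0.05. Standard errors were the log2 fold change divided by the square root of F. Alternatives were DESeq2 1.42.0, voom (limma 3.58.1), no filter, scaling to rows inside the regions, no table covariate and omitted libraries. Genes named were the 6, those of the 8 lists that passed or were among the 12 highest in mean CPM, and the 3 nearest profiles of each. Rars2, Aass, Polr1e, Rragd and single marker genes were named outside this rule, after their values were seen.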

Additional observations from a re-analysis of the deposited data

How the results depend on the processing

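No paired analysis was possible because replicate numbers were given in accession order and do not link KO with WT libraries. Over all libraries the 6 genes kept their direction in all 16 alternatives, and the call changed only for Asns, which passed without KO 5. Leaving out 1 library gave 0 to 1 of the 6 called, and for Asns a log2 fold change of 0.19 to 0.49. Of the 31 list genes, 0 to 2 were called as libraries were left out (Snd1 and Asns, both without KO 5), and 1, Snd1, with no filter on low counts. In the first table the count of 1 became 2 with DESeq2, voom or scaling to rows inside the regions, which added Pabpc1. It became 3 with no filter, which added Pabpc1 and Nol6 (and, among the list genes, Snd1 and Polr1e), and 0 to 1 with a library left out. That scaling moved the split of all first-table calls to 425 higher and 238 lower, against 305 and 291, and turned Rpl30 to 0.0099. The interaction count was 0 to 1 with a library left out, the 1 being Asns without KO 4. Values near 0 changed sign. As libraries were left out, the first-table value of Rpl30 ran from −0.083 to 0.037. The second-table values ran from −0.0023 to 0.19 for Rps20, −0.034 to 0.12 for Pabpc1, −0.70 to 0.36 for Asns and −0.28 to 0.23 for Nol6, and the interaction from −0.055 to 0.11 for Rps20 and −0.12 to 0.0024 for Rpl30. Nol6 in the second table was −0.018 with voom and −0.011 with no filter, and the Rps20 interaction −0.033 with no filter. Counts over all rows moved more. The pooled 548 calls became 848 with DESeq2, 1260 with no filter, 78 with WT 4, WT 5 and the table covariate all left out, and 226 to 990 as libraries were left out. The first table's 596 became 1322 with no filter and 158 to 456 as libraries were left out. The second table's 85 became 439 with DESeq2, 28 with voom, 2 with no filter and 0 to 5 as libraries were left out, and the interaction's 200 became 344, 717 and 57 to 484 with DESeq2, no filter and a library left out. What lies behind these shifts was not tested.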
